A study of Mus musculus with 6 samples.

Results

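The extracellular matrix and integrin genes of mouse liver are described here: collagens, laminins, integrins, matrix metalloproteinases (Mmp), their tissue inhibitors (Timp), fibulins, fibrillins, syndecans and the 6 matrix proteins encoded by Sparc, Fn1, Dcn, Bgn, Lum and Vtn. A rule on gene symbols, which uses no measured value, picked them, but it was set with earlier results of these data known. They number 84 of the 8251 genes on the array, with 125 of the 10833 probe sets that carry a single gene symbol. The livers came from male mice aged 8 to 10 weeks, and 1 one-colour array was hybridised for each of 3 genotypes at each of 2 circadian times. Circadian time (CT) is counted in hours from the onset of subjective day, so CT14 (14 h) lies early in the subjective night and CT02 (2 h) early in the subjective day. The groups were Clock mutant mice, mice labelled Cry-deficient, of which the CT02 array alone is described as lacking both Cry1 and Cry2, and wild-type mice of C57BL/6 background. The sources used here do not give the Clock allele, the background of the mutants or any pooling of mice. With 1 array per group no difference has a replicate check, so no p-value is given, the sizes below describe these 6 arrays, and their precision is limited by the number of arrays.

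The extracellular matrix is the scaffold of collagens, laminins and glycoproteins around cells, and integrins and syndecans are the surface receptors that bind it. In healthy liver it is sparse: the space between hepatocytes and the sinusoidal endothelium holds a loose matrix rather than a continuous basement membrane, with fibrillar collagen gathered around portal tracts and central veins. Stellate cells and portal fibroblasts make most of the collagen, endothelial cells contribute collagen IV and laminin, and hepatocytes secrete plasma fibronectin (Fn1) and vitronectin (Vtn) into the blood. Mmp enzymes cut matrix proteins and Timp proteins inhibit those enzymes, so that the balance between the families sets the rate of matrix turnover.

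Intensities are given in scaled units, after each array was divided by its median ratio to the mean of all arrays. A value of 606 units, the median of all probe sets, served as a floor: below it no level was read, a fold against a value under the floor is a lower bound, marked "at least". Where both values fell under the floor the fold is left out. Each gene was read on its brightest probe set. A gene was kept where its mean over the arrays reached the floor, which held for 39 of the 84 genes and 4844 genes in all. The remaining 45 were dim, and 33 of the 84 lay at or under the floor on every array. All 6 of the single matrix proteins and all 3 Timp genes were kept, as were 3 of 4 syndecans, 8 of 15 fibrillar and fibril-associated collagens, 6 of 16 basement membrane and other collagens, 4 of 9 laminins, 4 of 8 genes with an integrin beta symbol, 2 of 7 integrin alpha genes, 2 of 13 Mmp genes (Mmp11 and Mmp14) and 1 of 3 fibulins and fibrillins (Fbln1). Of the kept genes, Col1a1, Col6a2, Lamb1 and Timp2 would have been dim without their brightest array. Another, Itgb1bp1, entered through its symbol and encodes a protein that binds the tail of integrin beta 1 rather than an integrin subunit.

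**Figure D1:**
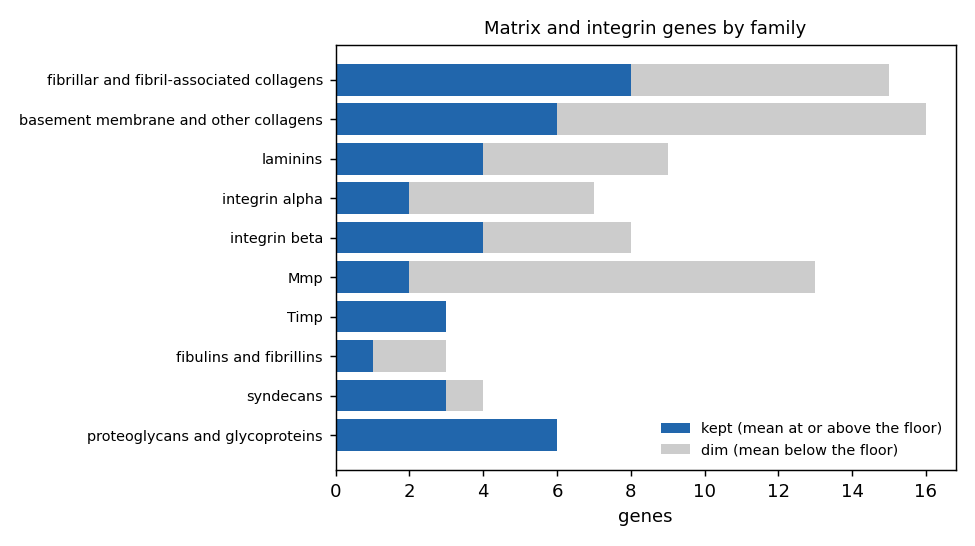
Number of matrix and integrin genes in each family (horizontal axis, genes) that were kept, with a mean of at least 606 scaled units (blue), or dim (grey). All 3 Timp genes and all 6 single matrix proteins were kept, against 2 of 13 Mmp genes.

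The arrays themselves were unequal. Before scaling, the mean deposited intensity on the Clock mutant CT02 array was 1637, and the other 5 arrays had means from 2182 to 2486. The 3'-to-5' signal ratio of the Actb control probe sets, a measure of RNA length, was 2.68 on that array and 1.70 on the Cry-labelled CT02 array, against 0.84 to 1.15 on the other 4, and the ratio for Gapdh was 2.37 on the Cry-labelled CT02 array and 0.56 to 0.72 elsewhere. Results that rest on these CT02 arrays are set beside CT14 below, which uses neither. Cry1 read 4718 and 3845 units at CT14 and CT02 on the arrays labelled Cry-deficient, against 2723 and 1833 in wild type, and Cry2 read 1344 and 1185, against 2256 and 1215. The Cry1 reading rests on a probe set whose name marks it as shared within a sequence family, and its other probe sets were under the floor on all arrays. No source used here gives the position of the Cry1 and Cry2 probes relative to any deletion. The arrays are therefore called Cry-labelled and their directions rest on the label.

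The first question was how matrix gene levels differed between the Clock mutant and wild type. At CT14, 4 of the 39 kept genes were at least 2-fold higher (Timp2, Col4a1, Sparc and Col9a3), beside 4.13% of all kept genes, and 3 were at least 2-fold lower (Itgb7, Sdc4 and Timp3), beside 5.64%. Timp2 passed the filter only through this Clock mutant CT14 array (1696 units), so its place among the higher genes follows partly from the filter. At CT02, 1 was higher (Col9a3; 4.25% of all kept genes) and 4 were lower (Col9a1, Itgb7, Itgb1bp1 and Sdc4; 7.51%). The median log2 ratio of the 39 was 0.07 at CT14 and 0.02 at CT02, beside -0.01 and 0.00 over all kept genes. By the median the members as a list therefore lay near the middle of both array pairs. At CT14, though, the ratio was above 0 for 24 members and below 0 for 14 (35.9%, beside 50.5% of all kept genes). Only Col9a3 was at least 2-fold higher at both times (1.16% of all kept genes), and Itgb7 and Sdc4 were lower at both times (1.86%). The Col9a3 call ended without scaling (log2 ratios 0.99 at CT14 and 0.65 at CT02) and with the mean over its probe sets (0.76 and 0.84), which left no member higher at both times.

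The second question was the same for the Cry-labelled mice. At CT14 Sparc alone passed 2-fold above wild type and no member passed it below, beside 2.46% and 2.27% of all kept genes. At CT02 Sdc4 was higher (2.73% of all kept genes) and 5 genes were lower, Itgb5, Itgb7, Col4a2, Col4a1 and Col9a1, which is 12.8% of the members beside 3.96% of all kept genes. The median log2 ratio was -0.02 at CT14 and -0.21 at CT02, beside -0.01 and 0.00 over all kept genes. No member was 2-fold apart in one direction at both times (0.475% of all kept genes in each direction). The CT02 median was -0.01 when probe sets whose names mark them as less specific were left out. With dim genes included it was 0.00, as in every comparison, which says little about the shift. A gene under the floor on both arrays counts as 0 there, and 33 of the 84 members were at or under it on all arrays.

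**Figure D2:**
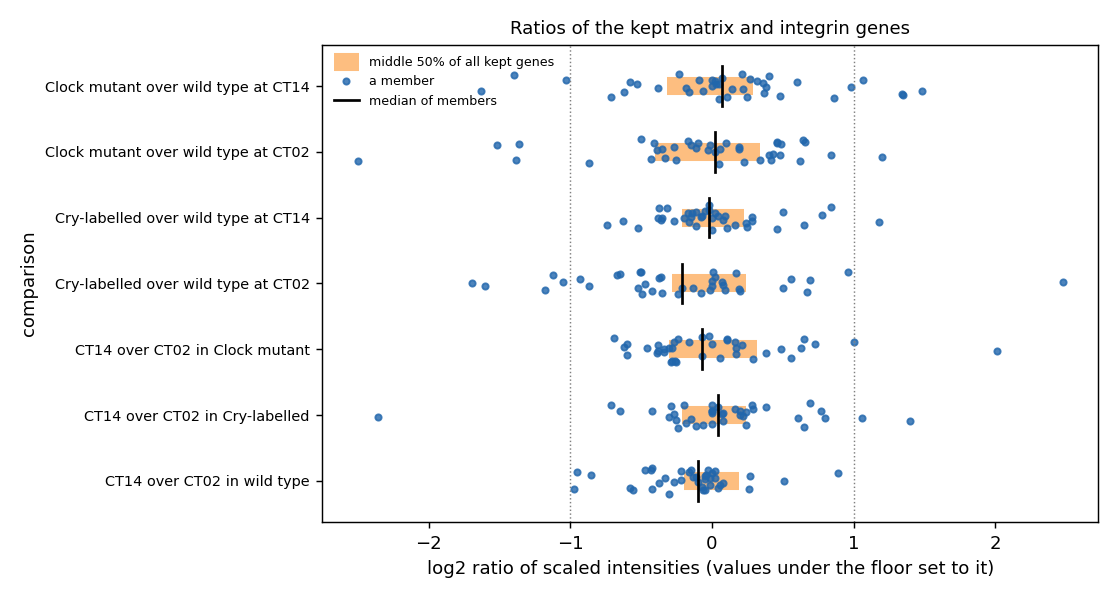
Log2 ratio of scaled intensities (horizontal axis) for the 39 kept members (blue points, spread vertically only for visibility) in each of the 7 comparisons, with their median (black bar) and the middle 50% of all kept genes (orange); dotted lines mark 2-fold. The medians lie between -0.21 and 0.07, and Sdc4 reaches 2.48 and -2.36.

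Array groups that did not overlap gave a similar picture. Both Clock mutant arrays lay above both wild-type arrays for 11 of 39 members, beside 23.6% of all kept genes, and below them for 8, beside 24.6%. Both Cry-labelled arrays lay above for 5 members, beside 18.2%, and below for 14 members (35.9%), beside 20.2%. All 4 mutant arrays lay above both wild-type arrays for Sparc, Col9a3 and Lum, 3 members beside 5.14% of all kept genes, and below them for Col9a1, Fbln1, Itga7 and Itgb7, 4 members beside 6.65%. For Itga7 and Fbln1 this holds on the brightest probe set. Another Itga7 probe set was higher in the Clock mutant. On another Fbln1 probe set the Clock mutant at CT02 (2411 units) lay above wild type at CT14 (1639 units).

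Among the matrix receptors, the syndecans carry heparan sulfate chains and act as co-receptors beside integrins. Sdc4, whose product gathers at focal adhesions, had the widest spread of all members. It read -138 and 97 units in the Clock mutant at CT14 and CT02, 1686 and 8667 on the Cry-labelled arrays, and 1599 and 1556 in wild type. The wild-type arrays and the Cry-labelled CT14 array were thus close to each other, the Cry-labelled CT02 array stood alone at the top and both Clock mutant arrays lay under the floor. Sdc4 was at least 2.64-fold lower in the Clock mutant than in wild type at CT14 and at least 2.57-fold lower at CT02, whereas on the Cry-labelled arrays it was 5.57-fold higher at CT02 (log2 ratio 2.48) with a log2 ratio of 0.08 at CT14. Macrophage markers were also high on that CT02 array: the 12 kept of 13 measured summed to 55250 units there, against 40653 in wild type at CT02 and 30777 to 43070 on all other arrays, with 11 of 12 above wild type and C1qa, which read 1508 against 4779, the exception. Their part in the Sdc4 level was not tested.

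On their brightest probe sets the other syndecans were steadier. Sdc1, the main syndecan of hepatocytes, read 2333 and 3055 units in the Clock mutant at CT14 and CT02, 3179 and 2448 on the Cry-labelled arrays, and 3829 and 2687 in wild type. Sdc2 read 5032 and 4499 units in the Clock mutant, 5942 and 7330 on the Cry-labelled arrays, and 3309 and 6378 in wild type, where it was 1.93-fold lower at CT14 than at CT02. On these probe sets the wild-type value at CT14 was an extreme of the 6, the highest for Sdc1 and the lowest for Sdc2. A second Sdc1 probe set did not keep this order, with 2186 units in the Clock mutant at CT02 against 1819 in wild type at CT14. It was less steady, falling to 623 units in the Clock mutant at CT14. Sdc3 was under the floor throughout.

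Integrins are pairs of an alpha and a beta chain, and Itgb1 encodes the beta chain shared by most collagen and laminin receptors. Itgb1 read 12653 and 9706 units in the Clock mutant at CT14 and CT02, 9363 and 9780 on the Cry-labelled arrays, and 12212 and 11534 in wild type, a range of 1.35-fold over the 6 arrays. Its partners Itga2, Itga5, Itga6 and Itga8 were under the floor on all arrays, and only Itga3 and Itga7 were kept. Itga3, a laminin-binding chain, read 438 units on the Cry-labelled CT02 array, under the floor, and 952 to 1461 units on the others.

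Itgb7, the beta chain of leukocyte integrins that home to gut, divided the arrays into separate levels. It read 1312 and 1470 units in the Clock mutant at CT14 and CT02, 3668 and 1393 on the Cry-labelled arrays, and 4070 and 4225 in wild type. Both Clock mutant arrays and the Cry-labelled CT02 array therefore lay between 1312 and 1470 units, and the other 3 between 3668 and 4225. Against wild type it was 3.10-fold lower in the Clock mutant at CT14 and 2.87-fold lower at CT02, and on the Cry-labelled arrays 3.03-fold lower at CT02 with a log2 ratio of -0.15 at CT14. Of 8 measured T and B cell markers, Cd3e, Cd3d, Cd3g, Ptprc and Cd2 were under the floor on every array, and the kept pair, Cd79b and Ms4a1, summed to 7226 and 8424 units in the Clock mutant, 6288 and 7690 on the Cry-labelled arrays, and 7119 and 6698 in wild type. A second Itgb7 probe set was under the floor on all arrays.

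Itgb5, a chain of vitronectin receptors, read 1540 and 1943 units in the Clock mutant, 1397 and 670 on the Cry-labelled arrays, and 1608 and 2156 in wild type, and was 3.22-fold lower on the Cry-labelled CT02 array than in wild type. Its second probe set was above the floor on only 2 arrays, at 846 units in the Clock mutant at CT14 and 1026 units in wild type at CT02, and gave at least 1.69-fold lower for both mutants at CT02, so it does not set the Cry-labelled array apart. Itgb1bp1 read 1213 and 489 units in the Clock mutant, 1537 and 2511 on the Cry-labelled arrays, and 1422 and 1580 in wild type on its brightest probe set. Its other probe sets did not follow that pattern: in the Clock mutant at CT02 their log2 ratios to wild type were at least 0.92 and 0.59, where the brightest gave at most -1.38. The direction of Itgb1bp1 is therefore uncertain.

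**Figure D3:**
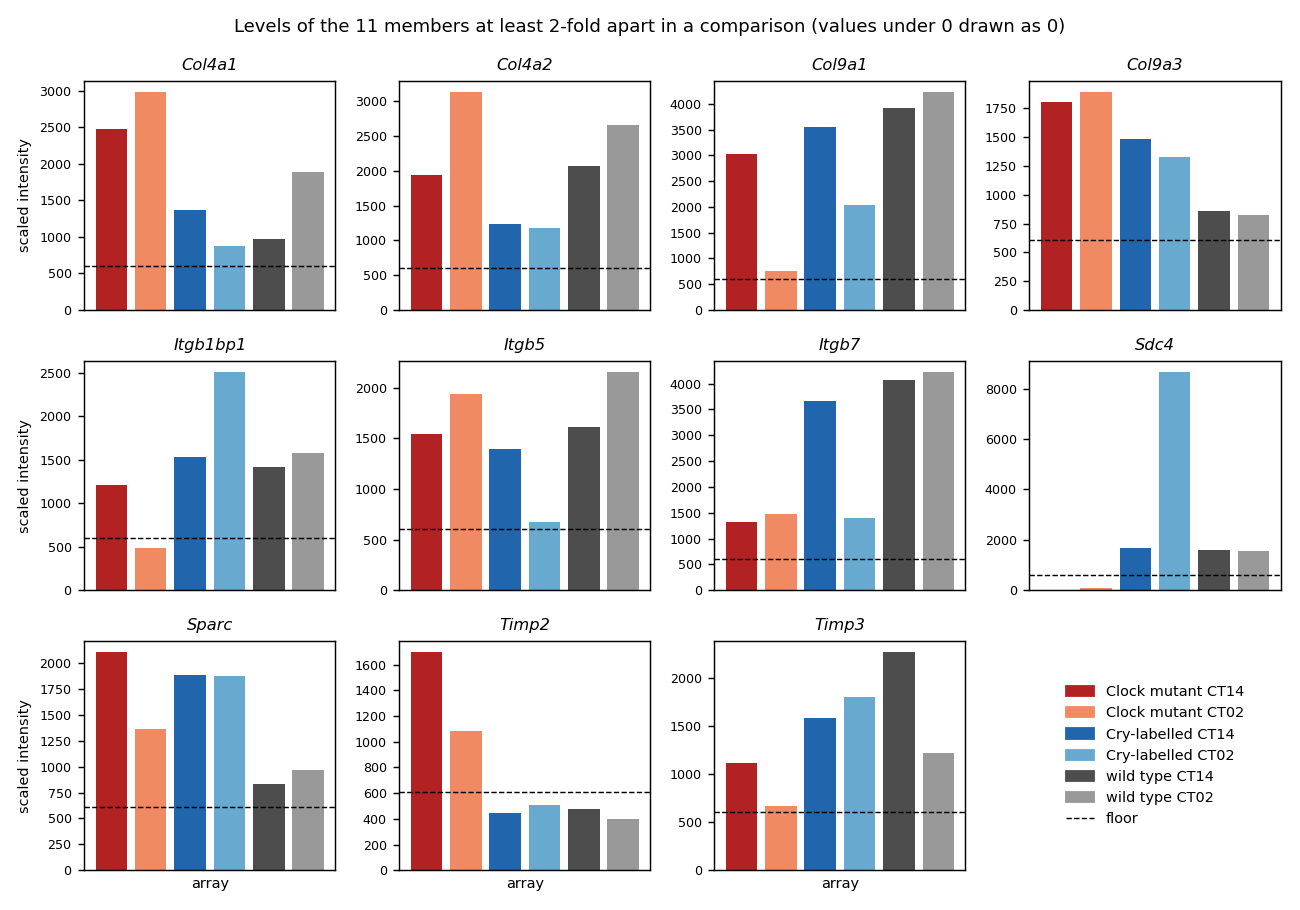
Scaled intensity (vertical axis, linear from 0, 1 panel per gene) on the 6 arrays of the 11 members at least 2-fold apart in some comparison, with the floor of 606 units dashed and values below 0 drawn as 0; there are no error bars because each bar is 1 array. Sdc4 is highest on the Cry-labelled CT02 array (8667 units) and under the floor in the Clock mutant, and Sparc and Col9a3 stand higher on all 4 mutant arrays than on the wild-type arrays.

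Collagen IV forms the network of basement membranes, and its main form combines chains encoded by Col4a1 and Col4a2. These genes lie head to head on chromosome 8. In RefSeq (GRCm38.p6) the promoter window of Col4a2, chr8:11312555-11312854 on the plus strand, overlaps that of Col4a1, chr8:11312777-11313076 on the minus strand, by 78 bases, and the annotated start sites lie 21 bases apart. By these coordinates each gene runs from its start past that of the other, so the bases from start to start open both transcripts and are not a gap between the genes. The stretch from one start to the other is shown because a pair of members shares it, read 5′ to 3′ on the plus strand with the start bases in capitals, Col4a2 at the left and Col4a1 at the right.
Col4a2 and Col4a1: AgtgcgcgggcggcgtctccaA
The Col4a2 window had a GC content of 73.7%, against a median of 52.7% over all 32851 promoter windows.

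Col4a1 read 2472 and 2983 units in the Clock mutant at CT14 and CT02, 1374 and 873 on the Cry-labelled arrays, and 970 and 1894 in wild type. Col4a2 read 1944 and 3132 units in the Clock mutant, 1236 and 1177 on the Cry-labelled arrays, and 2063 and 2664 in wild type. Both genes were highest on the Clock mutant CT02 array, and both were lower on the Cry-labelled array than in wild type at CT02, by 2.17-fold for Col4a1 and 2.26-fold for Col4a2. At CT14 they parted: Col4a1 was 2.55-fold higher in the Clock mutant and Col4a2 had a log2 ratio of -0.09, and on the Cry-labelled array the log2 ratios were 0.50 and -0.74. The chains of specialised basement membranes, Col4a3, Col4a4 and Col4a5, were under the floor on all arrays. Col18a1, the source of endostatin and a collagen that hepatocytes make in quantity, read 12369 and 15181 units in the Clock mutant, 13996 and 16602 on the Cry-labelled arrays, and 11765 and 16344 in wild type, lower at CT14 than at CT02 in every genotype on this probe set, by no more than 1.39-fold. In both mutants a pair of its other probe sets turned that direction, with log2 ratios of 0.38 and 0.36 in the Clock mutant and 0.63 and 1.28 on the Cry-labelled arrays, so no direction by time is given for the mutants.

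The collagen IX chains decorate collagen II fibrils in cartilage and did not move together. Col9a1 read 3022 and 749 units in the Clock mutant, 3557 and 2042 on the Cry-labelled arrays, and 3927 and 4231 in wild type. It was lowest on the CT02 arrays of the Clock mutant (5.65-fold below wild type) and the Cry-labelled mice (2.07-fold below), which are also the arrays with the highest Actb control ratios, and at CT14 its log2 ratios were -0.38 and -0.14. The part of RNA length in this was not tested. Col9a3 went the other way, with 1806 and 1893 units in the Clock mutant, 1481 and 1325 on the Cry-labelled arrays, and 860 and 822 in wild type. It was 2.10-fold and 2.30-fold higher in the Clock mutant at CT14 and CT02, and 1.72-fold and 1.61-fold higher on the Cry-labelled arrays, so that all 4 mutant arrays stood above both wild-type ones. Its second probe set was under the floor throughout. Col9a2 stayed within 1.58-fold over the 6 arrays.

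The fibrillar collagens that make up scar tissue differed less. Col1a2 read 8230 and 9886 units in the Clock mutant, 5431 and 4583 on the Cry-labelled arrays, and 6905 and 7202 in wild type, so that Clock mutant arrays were above and Cry-labelled arrays below wild type at both times, by log2 ratios of 0.25 and 0.46 and of -0.35 and -0.65. This reading rests on a probe set whose name marks it as chosen by relaxed rules, and the other Col1a2 probe set was below 0 on all arrays. Col3a1 read 2033 and 1377 units in the Clock mutant, 1014 and 868 on the Cry-labelled arrays, and 1030 and 1386 in wild type, with its largest ratio, 1.97-fold higher, in the Clock mutant at CT14. Col1a1, which encodes the partner chain of Col1a2, reached no more than 1036 units, close to the floor, so no order between groups can be read for it. Col5a1, a collagen that starts fibrils, read 2371 and 2873 units in the Clock mutant, 1811 and 2219 on the Cry-labelled arrays, and 1705 and 3079 in wild type, lower at CT14 than at CT02 in each genotype and by 1.81-fold in wild type. Col6a1, a chain of the beaded filaments around cells, read 3382 and 4141 units in the Clock mutant, 2680 and 4201 on the Cry-labelled arrays, and 2895 and 2977 in wild type, so that only the Clock mutant lay above both wild-type arrays at both times.

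The laminins, the other main component of basement membranes, were dim. Of the 4 kept, only Lamc1 was above the floor on every array, at 1017 and 945 units in the Clock mutant, 1026 and 891 on the Cry-labelled arrays, and 843 and 1258 in wild type. All 4 were below wild type on the Cry-labelled CT02 array, beside 48.1% of all kept genes, with a median log2 ratio of at most -0.51. That median is a bound because Lama1, Lama2 and Lamb1 lay under the floor there. Lama1 was at least 1.91-fold lower on that array. Lama1 read 1237 and 883 units in the Clock mutant, 926 and 385 on the Cry-labelled arrays, and 939 and 1157 in wild type. Lama2, the chain of muscle and nerve laminin, was above the floor on the Clock mutant and wild-type arrays, at 771 to 866 units, and under it on both Cry-labelled arrays, at 406 and 430 units.

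Sparc, a secreted calcium-binding glycoprotein that regulates collagen assembly, read 2103 and 1360 units in the Clock mutant at CT14 and CT02, 1880 and 1875 on the Cry-labelled arrays, and 831 and 966 in wild type. All 4 mutant arrays were above both wild-type arrays. In the Clock mutant Sparc was 2.53-fold higher at CT14 and 1.41-fold higher at CT02, and 2.26-fold and 1.94-fold higher on the Cry-labelled arrays. The ratios of both mutants share the wild-type arrays. Over the 6 arrays, which differ in genotype and time, the level of Sparc correlated best with those of Col9a3 (Pearson's r 0.79), Lum (0.54), Sdc2 (0.53), Timp2 (0.45) and Mmp14 (0.39), and that of Sdc4 with those of Itgb1bp1 (0.85), Timp3 (0.66), Fn1 (0.60), Bgn (0.59) and Sdc2 (0.55), all given as descriptions.

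Among the small leucine-rich proteoglycans, which bind collagen fibrils, Lum read 2517 and 2241 units in the Clock mutant, 1554 and 1552 on the Cry-labelled arrays, and 1390 and 1459 in wild type, and was 1.81-fold and 1.54-fold higher in the Clock mutant at CT14 and CT02. Dcn read 16565 and 21528 units in the Clock mutant, 14493 and 15629 on the Cry-labelled arrays, and 14329 and 15683 in wild type, a range of 1.5-fold. Bgn read 5612 and 5680 units in the Clock mutant, 8146 and 7707 on the Cry-labelled arrays, and 5198 and 7665 in wild type. Among these 3 genes, only for Lum and Dcn did both Clock mutant arrays exceed both wild-type arrays.

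Sparc, Lum and Dcn are also markers of stellate cells and fibroblasts. The 5 kept markers of those cells that are not members (Des, Vim, Reln, Tagln and Cnn1) summed to 15029 and 11288 units in the Clock mutant at CT14 and CT02, 7149 and 10826 on the Cry-labelled arrays, and 7358 and 10079 in wild type, while Acta2, Pdgfrb, Pdgfra and Thy1 were under the floor on all arrays. In the Clock mutant 4 of the 5 were above wild type at each time, with a median log2 ratio of 0.78 at CT14 and 0.18 at CT02. On the Cry-labelled arrays 2 of the 5 were above wild type at each time, with medians of -0.06 at CT14 and -0.43 at CT02. The 7 kept endothelial markers that are not members summed to 13480 and 16609 units in the Clock mutant, 15894 and 19644 on the Cry-labelled arrays, and 10698 and 15224 in wild type. At CT14, 6 of the 7 were above wild type in each mutant, and at CT02 4 in the Clock mutant and 7 on the Cry-labelled array. In wild type all 7 were lower at CT14 than at CT02 (median log2 ratio -0.38), so the CT14 counts are set against a low wild-type array. Pecam1, Lyve1, Vwf and Icam2 were under the floor on all arrays. Whether more of these cells account for the matrix levels was not tested, and in whole liver more cells of a type and more RNA per cell cannot be told apart.

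Vtn and Fn1 encode the plasma matrix proteins made by hepatocytes. Vtn read 19723 and 27137 units in the Clock mutant, 18892 and 22796 on the Cry-labelled arrays, and 19786 and 20222 in wild type. Fn1 read 6679 and 10119 units in the Clock mutant, 9496 and 10938 on the Cry-labelled arrays, and 10017 and 10352 in wild type. Vtn ranged over 1.44-fold, and Fn1 was lowest on the Clock mutant CT14 array, 1.5-fold below wild type.

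The Timp genes of the Clock mutant moved apart from each other. Timp2, whose product also helps to activate Mmp2, read 1696 and 1083 units in the Clock mutant at CT14 and CT02, and was under the floor on the other arrays, at 443 and 504 units on the Cry-labelled arrays and 479 and 401 in wild type. It was at least 2.80-fold higher in the Clock mutant at CT14 and at least 1.79-fold higher at CT02, with both other Timp2 probe sets under the floor on every array, and with the mean over all its probe sets no ratio could be read at CT14. Timp3, whose product is bound to the matrix, read 1113 and 670 units in the Clock mutant, 1587 and 1803 on the Cry-labelled arrays, and 2270 and 1221 in wild type. It was 2.04-fold lower in the Clock mutant at CT14 and 1.82-fold lower at CT02, so that the Clock mutant arrays held the 2 lowest values. Timp1, which is induced in fibrosis, stayed between 3892 and 5938 units. Of the proteases, Mmp14, a membrane-bound activator of Mmp2, read 2358 and 2812 units in the Clock mutant, 2607 and 3069 on the Cry-labelled arrays, and 2141 and 2689 in wild type. It was lower at CT14 than at CT02 in each genotype. Mmp11 read 2635 and 2762 units in the Clock mutant, 2043 and 1677 on the Cry-labelled arrays, and 2116 and 1769 in wild type, highest in the Clock mutant at both times, and Mmp2, Mmp3, Mmp7, Mmp8, Mmp9, Mmp10 and Mmp13 were under the floor on all arrays.

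**Figure D4:**
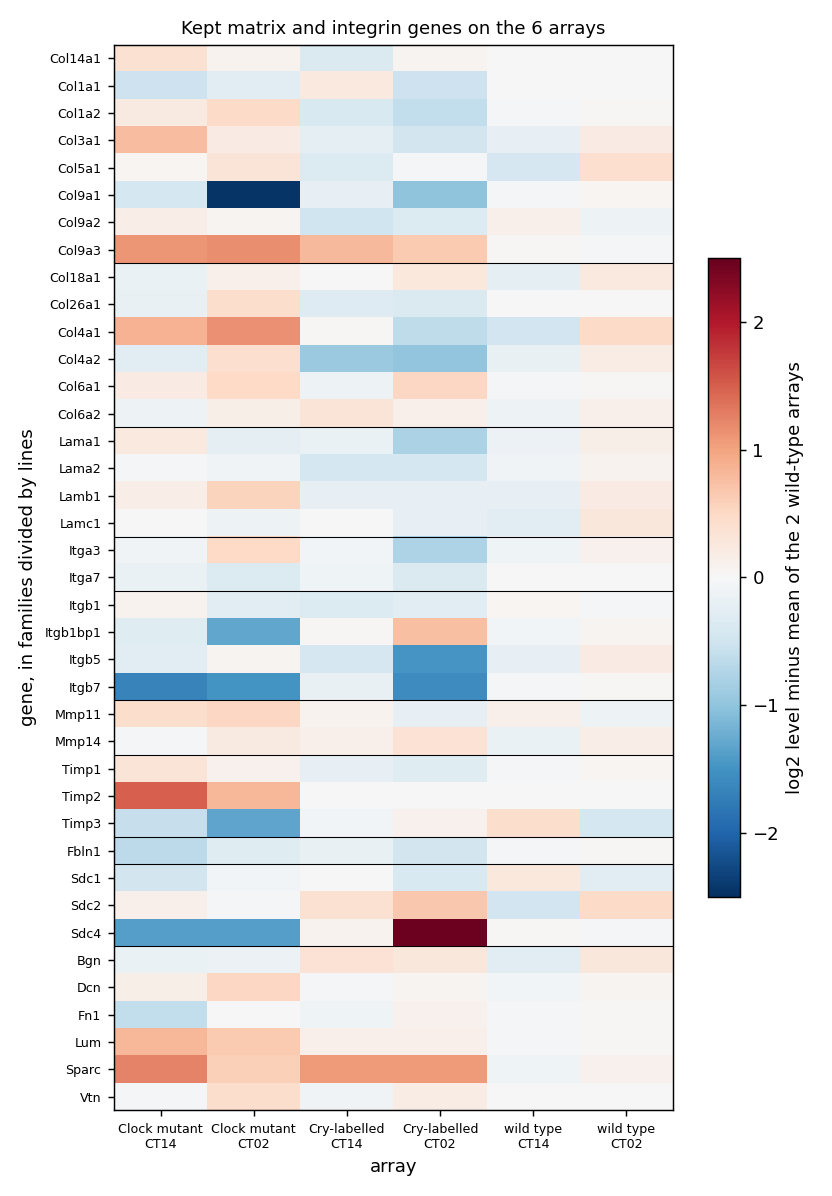
Level of the 39 kept members (rows, in families divided by lines) on the 6 arrays (columns), as the log2 level minus the mean of the 2 wild-type arrays, with values under the floor set to it; red is above and blue below wild type. Sparc and Col9a3 are red on all 4 mutant arrays, Itgb7 is deep blue on 3 of them, and most other rows are pale.

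The third question was which matrix genes differed between early night and early day. In wild type none of the 39 members was at least 2-fold apart, beside 2.48% of all kept genes higher and 2.09% lower at CT14, and with 1 array per time this has no test. The extremes were Timp3, 1.86-fold higher at CT14 than at CT02, and Col4a1, 1.95-fold lower. Most differences were small and in one direction: 29 of 39 members (74.4%) were lower at CT14, among them all 6 basement membrane and other collagens, all 4 laminins and all 6 single matrix proteins (for Bgn on the brighter of 2 probe sets), with a median log2 ratio of -0.10 beside 0.00 over all kept genes, of which 50% were lower. In the Clock mutant 2 members were at least 2-fold higher at CT14 (4.31% of all kept genes), Col9a1 by 4.03-fold and Itgb1bp1 by at least 2-fold, and none was lower (3.43%); with the Cry-labelled CT02 array left out of the scaling and the floor, 1 was higher. On the Cry-labelled arrays Itgb7 was 2.63-fold and Itgb5 2.09-fold higher at CT14 (3.53% of all kept genes) and Sdc4 was 5.14-fold lower (2.02%). The Itgb5 ratio fell under 2-fold with quantile normalization (log2 0.97) and with the mean over probe sets (0.67), and could not be read on its second probe set. Each of these 5 differences turns on the CT02 array of its genotype, since at CT14 the 5 genes lay within 1.30-fold of wild type.

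On the brightest probe sets, 28 of the 39 kept members were at least 2-fold apart in none of the 7 comparisons. There, 12 stayed within 1.5-fold in all of them: Col14a1, Col18a1, Col6a2, Dcn, Itga7, Itgb1, Lama2, Lamb1, Lamc1, Mmp14, Timp1 and Vtn. Col6a2, Lama2 and Lamb1 are among these partly because they lay at the floor on 2 or 3 arrays. Other probe sets of Col18a1 and Itga7 passed 2-fold. Col18a1 was 2.06-fold lower on the Cry-labelled array than in wild type at CT02, and Itga7 at least 2.74-fold higher in the Clock mutant at CT14. The median range over the 6 arrays was 0.77 on the log2 scale for the members and 0.83 for all kept genes.

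Other genes of matrix assembly, 69 measured and 36 kept of 81 listed (collagen-modifying enzymes, further glycoproteins, proteases, the TGF-beta axis and integrin adaptors), differed rarely. At CT14 the tetraspanin gene Cd9 was at least 2-fold higher in each mutant, with 3181 units in the Clock mutant and 2648 on the Cry-labelled array against 858 in wild type, and it was the only kept gene of the list 2-fold apart there. Cd9 was lowest on that wild-type array. At CT02 its log2 ratios to wild type were 0.17 in the Clock mutant and 0.47 on the Cry-labelled array. At CT02 Bmp1, which trims procollagen, and Smad4, a mediator of TGF-beta signalling, were lower in the Clock mutant, at 1730 against 5271 units and 647 against 1383 units, and no kept gene of the list was 2-fold apart on the Cry-labelled array. Between times, Smad4 and Smad7 were at least 2-fold higher at CT14 than at CT02 in the Clock mutant. In wild type Cd9 was 2.20-fold lower at CT14, on the same low array as in its mutant ratios. No kept gene of the list was 2-fold apart by time on the Cry-labelled arrays. Of its dim genes, 2 were at least 2-fold apart in some comparison, each through a single array above the floor. Hspg2, which encodes the basement membrane proteoglycan perlecan, read 1440 units in the Clock mutant at CT14, at least 2.38-fold above both wild type at CT14 and the Clock mutant at CT02. Plat, which encodes tissue plasminogen activator, read 3054 units on the Cry-labelled CT02 array, at least 5.04-fold above both wild type at CT02 and the Cry-labelled array at CT14. The list's median log2 ratio lay between -0.11 and 0.06 in all 7 comparisons. Tgfb1, Tgfb2, Tgfbr1, Tgfbr2, Ccn2, Lox and Loxl1 were under the floor on every array.

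The clock proteins bind the E-box motif, so the promoter windows of the members (250 bases before to 50 bases after each start, RefSeq GRCm38.p6) were searched for CACGTG, which reads the same on both strands. Windows were at hand for 57 of the 84 members. The motif was in 3 of their 65 windows (4.62%), beside 7.15% of all 32851 windows. It was in 0 of 11 windows from 10 of the 11 members that were 2-fold apart in a comparison. The other, Col9a3, had no window and was not searched. The D-box letters TTATGTAA and TTACGTAA, on either strand, were in none of the 65 and in 1.06% of all windows. Among the 28 kept members with a window only Fbln1, which encodes a matrix glycoprotein, held an E-box. Its 2 windows overlap and hold the same E-box, 81 bases before the first start and 140 before the second, so it was counted in both. The first window is shown as the exception, with the E-box in capitals. The letters cover the 250 bases before the first start, chr15:85205699-85205948 on the plus strand.
Fbln1: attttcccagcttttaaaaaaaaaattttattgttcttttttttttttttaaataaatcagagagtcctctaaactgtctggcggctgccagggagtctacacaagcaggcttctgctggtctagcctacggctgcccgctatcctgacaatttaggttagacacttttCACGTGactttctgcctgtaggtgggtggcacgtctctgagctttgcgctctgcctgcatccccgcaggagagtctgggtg
Fbln1 read 1935 and 2454 units in the Clock mutant, 2658 and 2193 on the Cry-labelled arrays, and 2981 and 3081 in wild type, below wild type on all 4 mutant arrays but by no more than 1.54-fold. A second probe set of the gene gave 1337 and 2411 units in the Clock mutant, 1408 and 1117 on the Cry-labelled arrays, and 1639 and 3257 in wild type, which is 2.92-fold lower on the Cry-labelled CT02 array. The probe sets thus differ in size, and on the second the Clock mutant CT02 array lay above the wild-type CT14 array.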

How the data were processed

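The authors deposited 1 table of intensity values, whole numbers for 12488 probe sets on 6 one-colour arrays, with values below 0 on every array, so a background or mismatch signal had been subtracted. Array means differed, and the sources used here do not give the software, scaling or array processing. Probe sets were named from the platform annotation. The 396 with several symbols were left out, and all 84 member symbols equalled those of RefSeq (GRCm38.p6) by gene number.

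Each array was divided by its median ratio over 6065 probe sets, the median of all scaled values (606) was taken as a floor, the brightest probe set stood for a gene, and genes with a mean at or above the floor were kept. Log2 ratios were computed with Python 3.11.15, numpy 2.4.6 and pandas 2.3.3 and drawn with matplotlib 3.10.9; the code was checked on simulated data. With 1 array per group no test was run. An additive fit of genotype and time was not used, since it takes the genotype-by-time difference as its error.

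Genes named with values are those at least 2-fold apart in any of 7 comparisons, the 10 brightest, up to 3 of each family, Sparc, Sdc4, Fn1, Vtn, Dcn, Bgn and Lum, and up to 3 of each other list. Others were named after their values were seen, among them dim genes, Lamc1, Col9a2, Mmp11 and C1qa. The members, the matrix assembly list and the cell type markers were chosen with earlier results of these data known. The alternatives, 6 planned and 2 added after seeing the data, changed the scaling, the floor, the filter or the choice of probe set, or left out a CT02 array. Motifs were counted in RefSeq promoter windows.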

Additional observations from a re-analysis of the deposited data

Results flagged for a closer look

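Itgb1bp1, which encodes a protein that binds the tail of integrin beta 1, differed between CT14 and CT02 in opposite directions in the mutants. Its log2 ratio of CT14 over CT02 was at least 1.0 in the Clock mutant, where the CT02 array (489 units) lay under the floor, and -0.71 on the Cry-labelled arrays (1537 and 2511 units), beside -0.15 in wild type. With 1 array per group the difference between the genotypes was not tested. The other 2 probe sets of the gene gave 1079 and 1149 units and 1431 and 1380 units in the Clock mutant at CT14 and CT02, and 837 and 587 units and 1325 and 1089 units on the Cry-labelled arrays. Their log2 ratios of CT14 over CT02 were -0.09 and 0.05 in the Clock mutant and at least 0.47 and 0.28 on the Cry-labelled arrays, where the sign is opposite to that of the brightest, so the directions rest on 1 probe set.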

How the results depend on the processing

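Of 118 recomputed counts and medians, 105 stayed within 1.5 times the main count or within 0.2 of the main log2 median, and 13 did not. Without scaling, the median was -0.53 in the Clock mutant relative to wild type at CT02 (all kept genes -0.52), 0.38 for CT14 over CT02 in the Clock mutant (all 0.45) and 0.26 on the Cry-labelled arrays (all 0.20), and 5 members were 2-fold apart by time in the Clock mutant. With the floor at the 25th percentile, 10 members were apart in the Cry-labelled mice at CT02, and by time 5 in the Clock mutant, 6 on the Cry-labelled arrays and 1 in wild type. The count by time in the Clock mutant was 1 under quantile normalization, with the mean over probe sets, and without the Cry-labelled CT02 array. The mean over probe sets left 3 apart in the Clock mutant at CT02, and with no filter the Cry-labelled CT02 median was 0.00. None of the 24 ratios past 2-fold turned its direction under the 8 alternatives in which it could be computed, but 18 stayed past 2-fold with the mean over probe sets; there Timp2 in the Clock mutant at CT14 fell under the floor, Itgb1bp1 at CT02 gave -0.01 and Col9a3 gave 0.76 and 0.84 at CT14 and CT02. The cause of these shifts was not tested, apart from the floor and the filter. By construction a lower floor lets dim values differ more, and including dim genes, which often count as 0, draws the median to 0. No paired analysis was possible because each group holds 1 array. For the same reason no value has an error from replicates, and 33 members, at or under the floor on all arrays, have no readable level; another 12 of the 45 dim members were above it on at least 1 array.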

Other observations

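Second probe sets of some members gave other values than the brightest one. For Col18a1, a probe set shared within a sequence family read 5117 and 3982 units in the Clock mutant at CT14 and CT02, 5271 and 2171 on the Cry-labelled arrays, and 3334 and 4467 in wild type, a log2 ratio of -1.04 for the Cry-labelled array over wild type at CT02 where the brightest gave 0.02. For Sdc1, a second probe set read 623 and 2186 units in the Clock mutant, 1775 and 1489 on the Cry-labelled arrays, and 1819 and 1188 in wild type, which is 2.92-fold lower in the Clock mutant at CT14, against 1.64-fold on the brightest. For Itga7, a second probe set read 1664 and 765 units in the Clock mutant and was under the floor on the other 4 arrays, at least 2.74-fold higher at CT14, whereas the brightest gave a log2 ratio of -0.16. For Bgn, the log2 ratio of CT14 over CT02 in wild type was 0.59 on one probe set and -0.56 on the other.

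Among the dim members, Col7a1, the collagen that anchors epidermis to dermis, read 1326 units on the Cry-labelled CT02 array, at least 2.19-fold above wild type at that time, and was under the floor on the other 5 arrays.

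The kept hepatocyte markers (8 genes) summed to 82006 and 112272 units in the Clock mutant at CT14 and CT02, 89230 and 106304 on the Cry-labelled arrays, and 93491 and 93823 in wild type. The sums hide genes that differ: Apoe read 234 and 884 units in the Clock mutant against 2696 and 3325 in wild type. Pck1 was higher in the Clock mutant at CT02, at 13613 against 6546 units. In the Clock mutant 1 of the 8 was above wild type at CT14 and 5 at CT02. The 3 kept cholangiocyte markers of 7 measured (Krt8, Krt18 and Cd24a) summed to 14248 and 18373 units in the Clock mutant, 19719 and 20591 on the Cry-labelled arrays, and 16422 and 16209 in wild type, with Krt19, Krt7, Epcam and Cldn7 under the floor throughout. The 2 kept erythroid markers of 3 measured (Hba-a1 and Alas2) summed to 28236 and 23787 units in the Clock mutant, 26551 and 25609 on the Cry-labelled arrays, and 24881 and 28276 in wild type. Of the platelet markers, Pf4 and Gp1bb were under the floor on all arrays, and Gp9 read 2520 and 4269 units in the Clock mutant, 2299 and 2112 on the Cry-labelled arrays, and 2687 and 2267 in wild type.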
